A study of Mus musculus with 16 samples.

Results

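The peroxisomal beta-oxidation genes described here are Ehhadh, Hsd17b4, Acaa1a, Acaa1b, Decr2, Ech1, Abcd2, Abcd3 and Crot. They were chosen by symbol, and all 9 were found among the 50559 gene symbols of the liver count table, which holds 16 libraries in 4 groups of 4. All mice were C57BL/6J males bought at 6 weeks of age, and their livers were collected after 10 weeks on a diet. The LFD group ate a low-fat diet (called chow in the labels) and the HFD group a 60% high-fat diet, and both were given a control siRNA against luciferase (10 mg/kg every 2 weeks) and gavage with methylcellulose. The HFD + siRNA group ate the high-fat diet and, from week 6 on, received siRNA against ketohexokinase (KHK, the enzyme that phosphorylates fructose) at 20 mg/kg every 2 weeks, with the same gavage. The HFD + Inhib group ate the same diet and received the control siRNA and a small-molecule inhibitor of KHK (15 mg/kg, 2 times a day, for 4 weeks). The siRNA carries a GalNAc group that directs it to hepatocytes, whereas the inhibitor reaches the whole body.

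Peroxisomes shorten very-long-chain, branched-chain and dicarboxylic fatty acids, which mitochondria handle poorly, and they hand the shortened products on to mitochondria. ABC transporters of the peroxisomal membrane import the acyl-CoA, an acyl-CoA oxidase makes the double bond and hydrogen peroxide, a bifunctional enzyme adds water and oxidizes the product, and a thiolase cuts off acetyl-CoA. Auxiliary enzymes deal with the double bonds of unsaturated fatty acids. In rodent liver, many of these genes are known to respond to the nuclear receptor PPARα, which fatty acids and fibrate drugs activate.

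In the HFD + Inhib group, 8 of the 9 genes were higher than in the HFD group, from 1.58-fold for Crot to 25.1-fold for Ehhadh, where 9.80% of all genes tested were called higher. Abcd2 was the exception. In the HFD + siRNA group none of the 9 was called higher than in the HFD group, except Crot after a correction for GC content, and Ehhadh and Abcd2 were lower, at 0.636 and 0.450 times the HFD level, where 6.55% of all genes were called lower. The call of Abcd2 was lost in 5 of 16 other fits, that correction among them. The high-fat diet itself went with a 2.95-fold higher level of Abcd2 and a 1.21-fold higher level of Decr2 than the low-fat diet, the latter a call that was lost in 9 of 16 other fits, and 9.58% of all genes were called higher with the diet.

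The thiolases Acaa1a and Acaa1b are near copies, and 96.5% of the bases of their coding sequences are the same (1231 of 1275). Their first 120 coding bases in GENCODE M21 are shown here so that the likeness of the pair can be seen. Capitals mark the 4 bases that differ.
Acaa1a: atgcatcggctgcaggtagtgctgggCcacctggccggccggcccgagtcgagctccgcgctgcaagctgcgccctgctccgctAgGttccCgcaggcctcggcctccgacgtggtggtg
Acaa1b: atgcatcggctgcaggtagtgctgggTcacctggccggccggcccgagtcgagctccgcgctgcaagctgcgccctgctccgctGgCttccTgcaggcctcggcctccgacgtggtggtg

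Of the words of 50 bases in the annotated transcripts, 30.5% of those of Acaa1b also occur in Acaa1a, and 12.4% of those of Acaa1a occur in Acaa1b. For the other 7 genes, at most 2.02% of the words occur in any other gene. The levels of Acaa1a and Acaa1b are therefore given as uncertain.

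The 250 bases before the start site of Ehhadh, Acaa1b and Acaa1a are shown for the bifunctional enzyme and the thiolases, genes called higher in HFD + Inhib versus HFD. They come from RefSeq on GRCm38.p6, and capitals mark the CCAAT box on either strand (CCAAT or ATTGG). The stretch for Ehhadh is chr16:21787835-21788084 on the minus strand, that for Acaa1b is chr9:119157094-119157343 on the minus strand, and that for Acaa1a is chr9:119341044-119341293 on the plus strand.
Ehhadh: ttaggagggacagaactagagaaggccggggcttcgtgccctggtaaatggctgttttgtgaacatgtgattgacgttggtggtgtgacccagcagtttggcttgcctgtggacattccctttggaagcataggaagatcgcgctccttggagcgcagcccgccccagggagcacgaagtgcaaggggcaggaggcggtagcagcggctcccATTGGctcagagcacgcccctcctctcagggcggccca
Acaa1b: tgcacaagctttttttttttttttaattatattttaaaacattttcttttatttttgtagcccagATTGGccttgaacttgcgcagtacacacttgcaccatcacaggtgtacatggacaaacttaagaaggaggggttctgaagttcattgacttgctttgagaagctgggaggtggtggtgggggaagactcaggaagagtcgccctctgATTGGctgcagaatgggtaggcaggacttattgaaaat
Acaa1a: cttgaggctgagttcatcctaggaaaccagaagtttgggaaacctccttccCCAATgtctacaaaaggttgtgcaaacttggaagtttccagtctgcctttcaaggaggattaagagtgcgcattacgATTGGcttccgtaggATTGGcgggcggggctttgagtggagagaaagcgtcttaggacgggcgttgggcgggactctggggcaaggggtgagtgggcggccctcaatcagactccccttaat

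RefSeq promoters were found for 7 of the 9 genes. Those of Hsd17b4 and Abcd2 are not shown. The direct repeat DR1, which PPARα and its partner RXR can bind and which was searched as 2 copies of AGGTCA with any 1 base between them, was not in these 250 bases of any of the 7 genes on either strand, and it occurred in 0.0335% of 32851 promoters. Its half-site AGGTCA, which every DR1 match also holds, occurred in 14.0% of all promoters and in 0 of the 7. The letters TATAAA occurred in 12.4% of promoters and in 0 of the 7. The CCAAT box occurred in 33.8% of promoters and in those of 4 of the 7, with 3 copies in Acaa1a, 2 in Acaa1b, and 1 each in Ehhadh and Crot.

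The deposited values are expected counts. Their sum per library ran from 24317111 to 35820234. All levels are given in CPM, the usual scaling of counts to a common library size, after TMM scaling, a correction for differences in composition between libraries. All 9 genes passed the filter on low counts, and the lowest count of any of them in a library was 397, for Abcd2 in the LFD group. A gene was called higher or lower where its adjusted p was under 0.05 in edgeR's quasi-likelihood test, adjusted by the Benjamini-Hochberg method over all 18335 genes tested. Nothing in the labels says that the 4 libraries of a group came from separate mice, so the p-values measure the spread between these libraries.

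Khk was examined first, as the target of the siRNA. It had 214, 233, 349 and 269 CPM in the 4 LFD libraries, 251, 322, 233 and 251 CPM in the HFD libraries, 11.8, 9.14, 18.1 and 11.5 CPM in the HFD + siRNA libraries, and 112, 152, 94.6 and 120 CPM in the HFD + Inhib libraries. The HFD + siRNA libraries were the lowest and overlapped with no other group, as their labels say. Against HFD, the log2 fold change was -4.38 (SE 0.23, adjusted p = 1.9e-08) with the siRNA and -1.14 (SE 0.20, adjusted p = 0.00075) with the inhibitor.

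The tissue label was checked against hepatocyte markers. Alb, the gene of serum albumin and the most abundant of them, averaged 50980 CPM in HFD and 29925 CPM in HFD + Inhib. The 5 hepatocyte markers found together made up 75489 ± 8534 CPM in LFD, 64967 ± 6624 CPM in the HFD group, 70001 ± 4968 CPM in the HFD + siRNA group and 39826 ± 1546 CPM in the HFD + Inhib group (SD, n = 4 each). Alb, Ttr and Cps1, 3 of these 5 markers, were lower in HFD + Inhib versus HFD, while 8 of the 9 peroxisomal genes were higher. Of all genes tested, 8.42% were called lower in that comparison and 9.80% higher. In such bulk samples fewer cells of a type and less RNA per cell cannot be told apart.

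Ehhadh encodes the L-bifunctional enzyme, which hydrates and then oxidizes the acyl-CoA and is best known for its role with dicarboxylic fatty acids. It had 257, 252, 247 and 218 CPM in the LFD libraries, 285, 236, 315 and 277 CPM in the HFD libraries, 197, 190, 149 and 171 CPM in the HFD + siRNA libraries, and 9067, 6816, 5561 and 6448 CPM in the HFD + Inhib libraries. Each HFD + siRNA library was below every LFD and HFD library, and the lowest HFD + Inhib library, at 5561 CPM, was far above the highest of the others, at 315 CPM. The inhibitor group differed by a log2 fold change of 4.65 from HFD (SE 0.16, adjusted p = 4.2e-11) and of 5.30 from HFD + siRNA (SE 0.17, adjusted p = 8.4e-12), and the siRNA group by -0.65 from HFD (SE 0.14, adjusted p = 0.0084). HFD and LFD overlapped, and their difference of 0.19 (SE 0.14, adjusted p = 0.37) did not pass the threshold. From 0.0292% of all counts in the HFD group, Ehhadh went to 0.677% in the HFD + Inhib group.

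Hsd17b4 encodes the D-bifunctional enzyme, which does the same pair of reactions through the other stereoisomer and also serves branched-chain fatty acids and bile acid precursors. Its libraries had 306, 358, 349 and 316 CPM in LFD, 351, 417, 420 and 370 CPM in the HFD group, 375, 493, 372 and 420 CPM in the HFD + siRNA group, and 817, 818, 802 and 794 CPM in the HFD + Inhib group. The HFD + Inhib values were the highest and the closest together, with a coefficient of variation of 1.46% against 21.4% for Ehhadh in the same libraries. The log2 fold change in HFD + Inhib versus HFD was 1.05 (SE 0.10, adjusted p = 2.9e-06). HFD against LFD gave 0.23 (adjusted p = 0.12) and HFD + siRNA against HFD 0.09 (adjusted p = 0.60), and neither passed the threshold. With the GC and length correction and the replicate block together, HFD against LFD was called (0.24, adjusted p = 0.044).

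**Figure D1:**
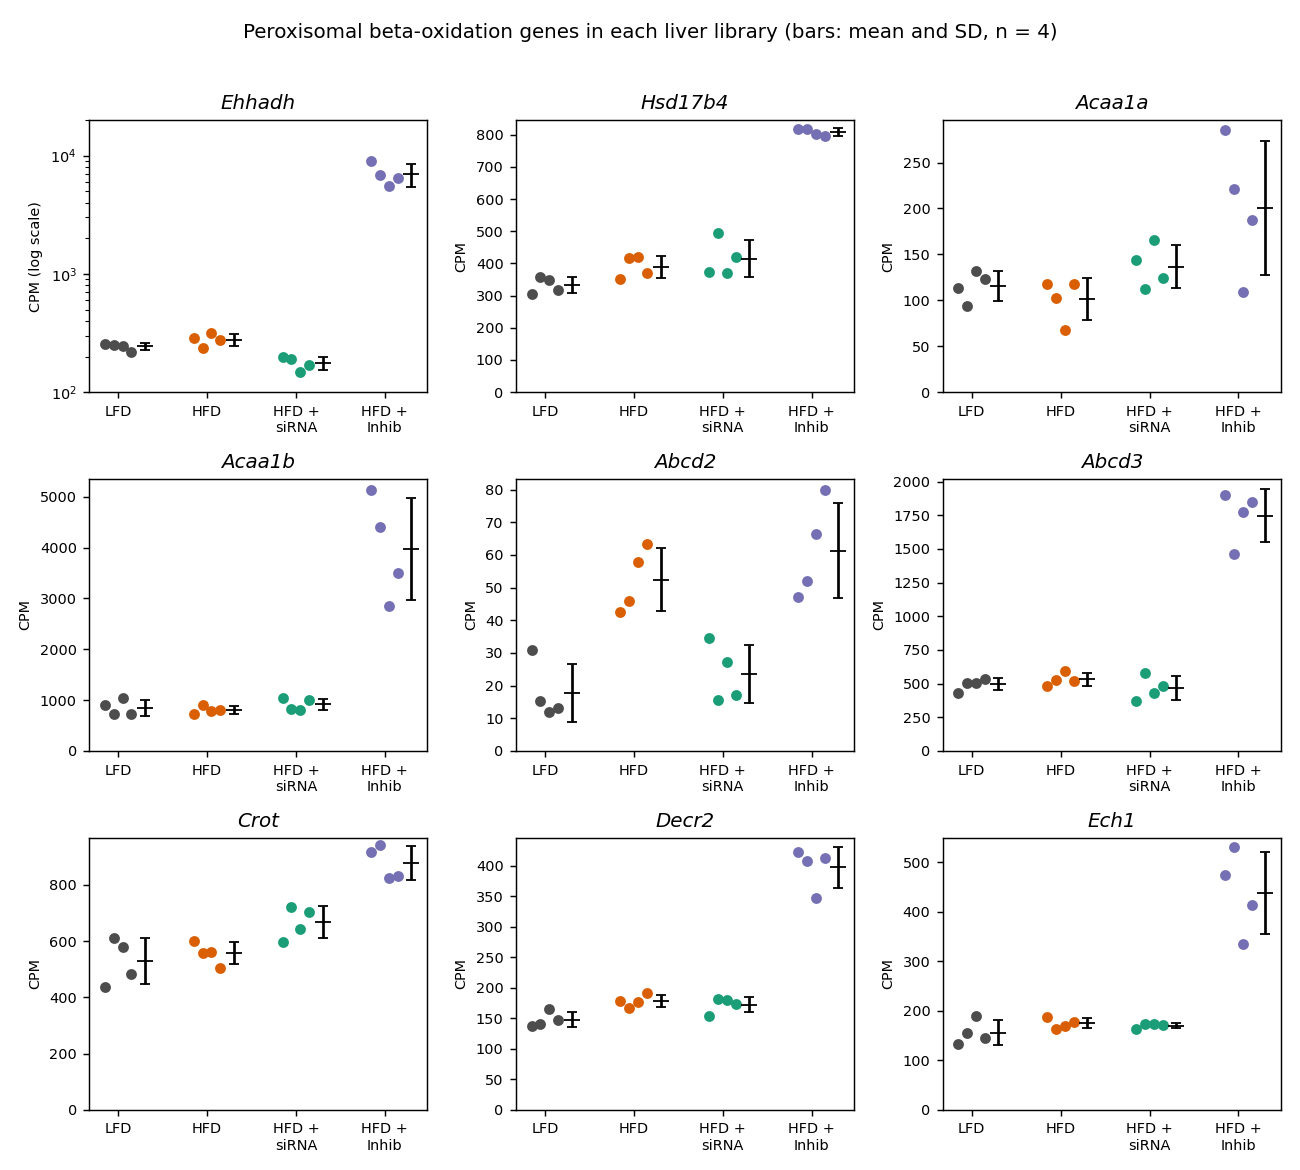
Level of each of the 9 genes in CPM in the 4 libraries of each group (points), with the group mean and SD (bars), on a log axis for Ehhadh and linear axes from 0 for the others. For Ehhadh the HFD + Inhib libraries stand at 5561 to 9067 CPM and all others at 149 to 315 CPM, whereas for Abcd2 the HFD and HFD + Inhib libraries overlap.

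The RNA of the L- and D-bifunctional enzymes was set in relation within each library, as the log2 ratio of Ehhadh to Hsd17b4 CPM. CPM is not corrected for transcript length, so the ratio is compared between groups only. The mean ratio was -0.45 ± 0.13 in the LFD group, -0.49 ± 0.23 in the HFD group, -1.23 ± 0.20 in the HFD + siRNA group and 3.09 ± 0.28 in the HFD + Inhib group (SD, n = 4 each). The ratio was thus highest in the HFD + Inhib libraries, at 2.79 to 3.47, and lowest in the HFD + siRNA libraries, at -1.38 to -0.93. In a two-sided exact permutation test, HFD + Inhib differed from HFD (p = 0.0286, adjusted p = 0.0343 over 6 pairs of groups), as did HFD + siRNA (p = 0.0286, adjusted p = 0.0343). The value of 0.0286 is the smallest p that 4 libraries against 4 can give. HFD and LFD did not differ beyond their spread (exact p = 0.829).

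Acaa1a and Acaa1b encode the thiolases that release acetyl-CoA in the last step. Acaa1b had 913, 722, 1041 and 726 CPM in the LFD libraries, 730, 901, 786 and 813 CPM in the HFD libraries, 1034, 831, 813 and 994 CPM in the HFD + siRNA libraries, and 5132, 4404, 2855 and 3506 CPM in the HFD + Inhib libraries. Only the HFD + Inhib group stood apart, with a log2 fold change against HFD of 2.30 (SE 0.18, adjusted p = 3.1e-07). The siRNA group gave 0.19 against HFD (adjusted p = 0.52), and HFD gave -0.07 against LFD (adjusted p = 0.80).

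Acaa1a was the lower of the pair in every library. It had 114, 93.7, 131 and 123 CPM in LFD, 117, 103, 68.1 and 118 CPM in the HFD group, 144, 113, 165 and 125 CPM in the HFD + siRNA group, and 285, 221, 110 and 187 CPM in the HFD + Inhib group. Replicate 3 of HFD + Inhib, with 110 CPM, lay within the range of the LFD and of the HFD group and below every HFD + siRNA library, so that HFD + Inhib overlapped with all 3 other groups. HFD + Inhib versus HFD gave 0.98 (SE 0.23, adjusted p = 0.0072). Against HFD + siRNA it was 0.55 (SE 0.23, adjusted p = 0.074) and was not called, while without replicate 3 of HFD + Inhib it was 0.76 (adjusted p = 0.0081), and once GC content and transcript length were corrected for, it was 0.83 (adjusted p = 0.0039).

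The share of Acaa1b in the counts of the pair was 87.9% ± 1.62 in the LFD group, 88.8% ± 2.61 in the HFD group, 87.0% ± 2.61 in the HFD + siRNA group and 95.3% ± 0.701 in the HFD + Inhib group (SD, n = 4 each). All HFD + Inhib libraries, at 94.7% to 96.3%, were above all others, which reached 92.0%. The exact two-sided permutation test gave p = 0.0286 for HFD + Inhib against HFD and an adjusted p of 0.0571 over the 6 pairs of groups, which misses the threshold. Only the pairs with HFD + Inhib reached 0.0286, the smallest possible p. In that case the adjustment over 6 pairs cannot give less than 0.0571, so the miss does not measure the size of the difference. This share rests on the division of reads between near copies, and whether that division affected it was not tested.

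**Figure D2:**
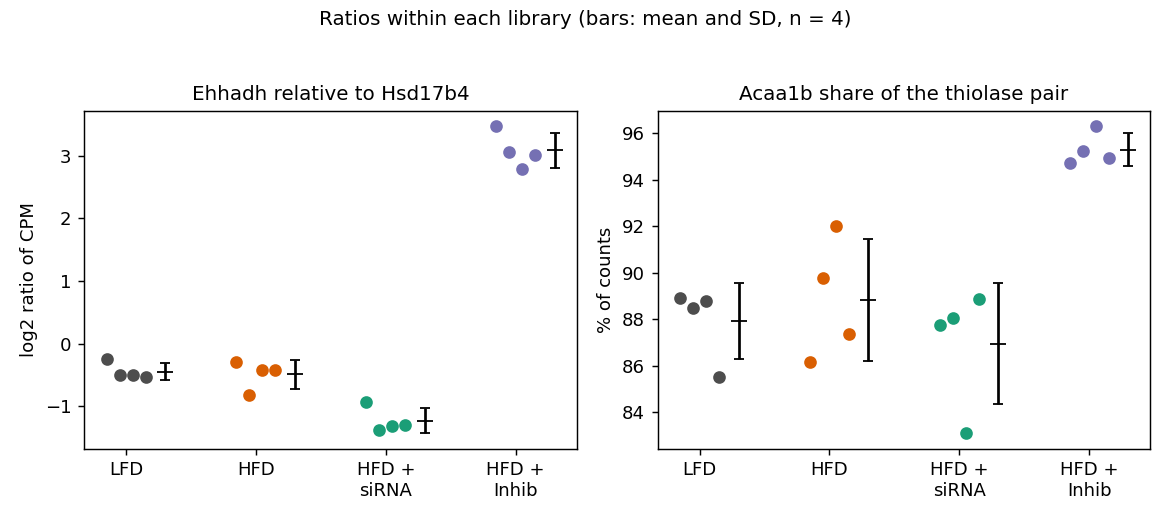
Left, log2 ratio of Ehhadh to Hsd17b4 CPM, and right, Acaa1b as a percentage of the counts of Acaa1a and Acaa1b, in each library (points) with the group mean and SD (bars). The HFD + Inhib libraries lie above all others in both panels, at 2.79 to 3.47 and at 94.7% to 96.3%, and the right axis does not start at 0.

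Decr2 and Ech1 are auxiliary enzymes for unsaturated fatty acids. Decr2, the peroxisomal dienoyl-CoA reductase, had 137, 140, 164 and 147 CPM in the LFD libraries, 179, 167, 177 and 192 CPM in the HFD libraries, 154, 181, 180 and 173 CPM in the HFD + siRNA libraries, and 422, 407, 347 and 413 CPM in the HFD + Inhib libraries. HFD + Inhib, at 397 CPM on average, was above the other groups and overlapped with none of them, with a log2 fold change against HFD of 1.15 (SE 0.09, adjusted p = 3.3e-07). The HFD libraries lay just above the LFD libraries without overlap, by 0.28 (SE 0.09, adjusted p = 0.036). That call was lost in 9 of 16 other fits, among them those without LFD replicate 1, 2 or 4 and those without HFD replicate 1, 3 or 4, in which the value was 0.25 to 0.29 and the adjusted p 0.052 to 0.11. With the GC and length correction it kept its call (0.33, adjusted p = 0.0097).

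Ech1, a dienoyl-CoA isomerase present in both peroxisomes and mitochondria, had 132, 156, 189 and 146 CPM in LFD, 187, 163, 170 and 177 CPM in the HFD group, 163, 173, 173 and 171 CPM in the HFD + siRNA group, and 473, 529, 335 and 414 CPM in the HFD + Inhib group. The first 3 groups overlapped, and HFD + Inhib lay above them. With the inhibitor, Ech1 was higher than in HFD by 1.33 (SE 0.13, adjusted p = 2.9e-06), and with the siRNA the value was -0.04 (adjusted p = 0.89). HFD against LFD gave 0.16 (adjusted p = 0.40), and of 16 other fits it was called only with the GC and length correction, alone (0.31, adjusted p = 0.041) or with the replicate block (0.32, adjusted p = 0.046).

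The transporters of the ABCD family carry acyl-CoA into peroxisomes. Abcd3, also known as PMP70, is the abundant member of the family in liver and takes up dicarboxylic and branched-chain substrates and bile acid precursors. It had 432, 507, 506 and 534 CPM in the LFD libraries, 485, 524, 595 and 521 CPM in the HFD libraries, 371, 580, 432 and 485 CPM in the HFD + siRNA libraries, and 1901, 1463, 1775 and 1844 CPM in the HFD + Inhib libraries. Again only HFD + Inhib was clear of the other groups, and it exceeded HFD by 1.72 on the log2 scale (SE 0.13, adjusted p = 3.4e-07). For the siRNA group the value against HFD was -0.19 (adjusted p = 0.38).

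Abcd2, a transporter of very-long-chain acyl-CoA, did not follow the pattern of the enzymes. It had 30.9, 15.3, 11.9 and 13.2 CPM in the LFD libraries, 42.7, 46.0, 57.8 and 63.3 CPM in the HFD libraries, 34.5, 15.6, 27.2 and 17.0 CPM in the HFD + siRNA libraries, and 47.2, 52.1, 66.3 and 79.8 CPM in the HFD + Inhib libraries. The HFD libraries were above every LFD and every HFD + siRNA library, and they overlapped with the HFD + Inhib libraries. HFD was above LFD by 1.56 on the log2 scale (SE 0.30, adjusted p = 0.0027). The siRNA group was below HFD by a value of -1.15 (SE 0.30, adjusted p = 0.020). The inhibitor group gave 0.23 against HFD (SE 0.29, adjusted p = 0.64) and 1.38 against the siRNA group (SE 0.30, adjusted p = 0.0021). The difference between HFD + siRNA and HFD lost its call without HFD replicate 3 (-1.10, adjusted p = 0.056), without HFD replicate 4 (-1.07, adjusted p = 0.053), without HFD + siRNA replicate 4 (-1.04, adjusted p = 0.064), and after the GC and length correction, alone (-0.85, adjusted p = 0.11) or with the replicate block (-0.93, adjusted p = 0.074). Abcd2 has the lowest GC content of the 9 genes, 41.6%, against a median of 49.8% over the tested genes.

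Crot encodes carnitine octanoyltransferase, which makes the shortened acyl groups ready to leave the peroxisome. Its libraries had 437, 612, 579 and 484 CPM in LFD, 601, 557, 562 and 505 CPM in the HFD group, 596, 723, 644 and 701 CPM in the HFD + siRNA group, and 917, 942, 822 and 830 CPM in the HFD + Inhib group. Crot had the smallest called rise, with a log2 fold change of 0.66 (SE 0.11, adjusted p = 0.00055) in HFD + Inhib versus HFD, and none of the HFD + Inhib libraries overlapped with another group. Against HFD + siRNA the value was 0.40 (SE 0.11, adjusted p = 0.011), and after the GC and length correction it was 0.15 (adjusted p = 0.29) and no longer called. The same correction moved the difference between HFD + siRNA and HFD from 0.26 (adjusted p = 0.14) to 0.38 (adjusted p = 0.033), past the threshold.

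With the high-fat diet, in HFD versus LFD, 2 of the 9 genes were higher (Abcd2 and Decr2), and 9.58% of all genes tested were called higher. None was lower by edgeR, at an unadjusted p under 0.05 or by DESeq2, where 8.80% of all genes were called lower. The median log2 fold change of the 9 was 0.16, and that of all genes -0.01.

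With the siRNA, in HFD + siRNA versus HFD, 2 of the 9 were lower (Ehhadh and Abcd2), where 6.55% of all genes were called lower. None was called higher by edgeR or DESeq2, with 1 at an unadjusted p under 0.05, although edgeR with the GC and length correction called Crot higher (0.38, adjusted p = 0.033). Of all genes, 5.20% were called higher. The median over the 9 was -0.04, against 0.02 for all genes. HFD + siRNA versus LFD gave no call for the 9 genes, where 8.63% of all genes were called in either direction. In that comparison 4 of the 9 had an unadjusted p under 0.05, and DESeq2 called 3. The value for Ehhadh was -0.46 (SE 0.14, adjusted p = 0.053), with no overlap between the groups, and 7 of 16 other fits called it lower, among them that without LFD replicate 4 (-0.52, adjusted p = 0.048).

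With the inhibitor, in HFD + Inhib versus HFD, 8 of the 9 were higher, and 9.80% of all genes were. None of the 9 was lower, also not at an unadjusted p under 0.05 or by DESeq2, and 8.42% of all genes were. The median was 1.15, against -0.00 for all genes. Against HFD + siRNA, 8 of the 9 were higher in HFD + Inhib, all but Acaa1a, where 17.3% of all genes were higher and 16.6% lower. DESeq2 called all 9 higher there, Acaa1a at 0.57 (adjusted p = 0.041), and all 9 were higher at an unadjusted p under 0.05. In HFD + Inhib versus LFD all 9 were higher, where 18.8% of all genes were, and the call of Acaa1a (0.80, adjusted p = 0.013) was lost without HFD + Inhib replicate 1 (0.58, adjusted p = 0.053). The HFD libraries enter 3 of these comparisons and the HFD + Inhib libraries enter 3, so the comparisons are not independent of each other.

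**Figure D3:**
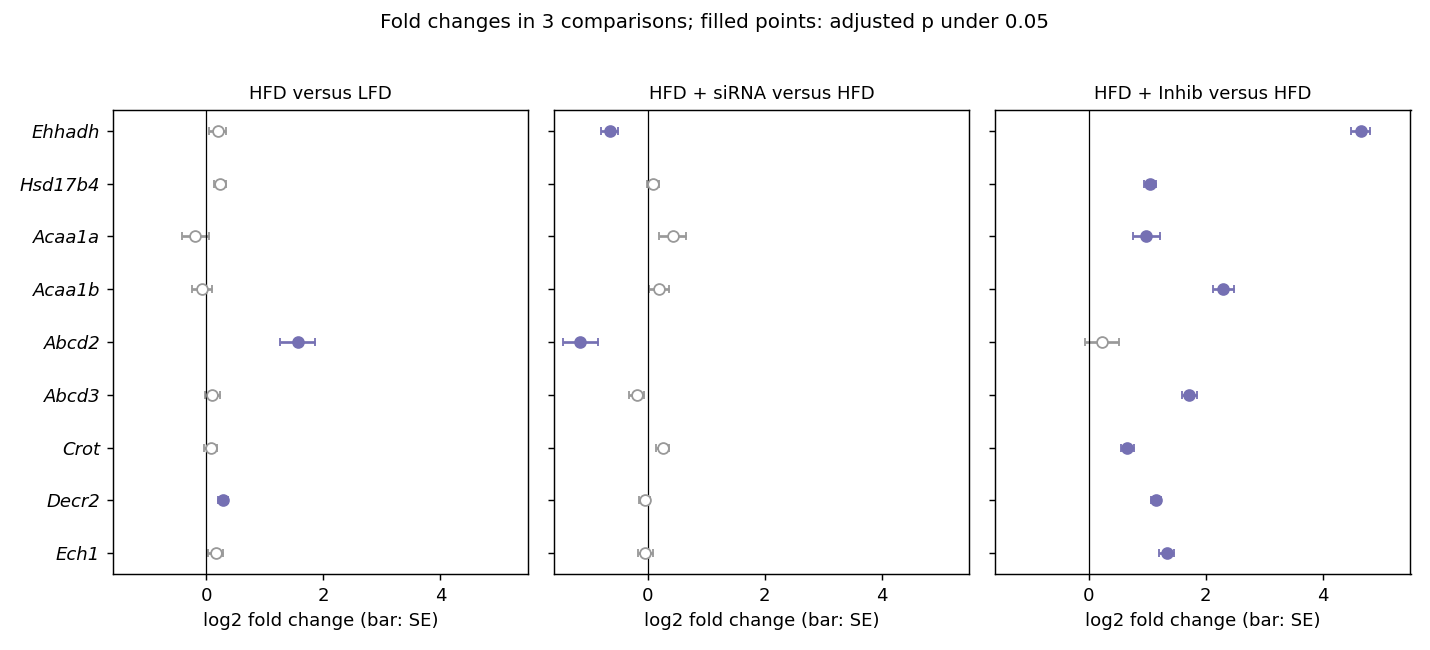
log2 fold change with its standard error for the 9 genes in 3 comparisons, with filled points for an adjusted p under 0.05. In HFD + Inhib versus HFD, Ehhadh lies furthest to the right at 4.65 and Abcd2, at 0.23, is the open point, whereas for HFD + siRNA the filled points are Ehhadh at -0.65 and Abcd2 at -1.15.

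Levels of different genes were compared per kilobase of transcript. This holds only if the reads came from along the transcripts, and the paper's methods name a probe assay, so the scale is open. In the HFD group the mean per kilobase was 478 CPM for Acaa1b, 186 for Crot, 152 for Abcd3, 145 for Hsd17b4, 138 for Ech1, 93.3 for Ehhadh, 80.3 for Decr2, 57.6 for Acaa1a and 9.48 for Abcd2. In the HFD + Inhib group it was 2353 CPM per kilobase for Acaa1b and 2339 for Ehhadh, followed by 500.4 for Abcd3 and 11.1 for Abcd2 as the last. Ehhadh thus went from sixth to second among the 9. Among the 15858 tested genes with a known length, Ehhadh ranked 507 in the HFD group and 24 in the HFD + Inhib group, and Acaa1b ranked 92 and 22. In the HFD + siRNA group Ehhadh ranked 877. Together the 9 genes held 3069 ± 77.7 CPM in the HFD group and 15476 ± 2688 CPM in the HFD + Inhib group (SD, n = 4 each).

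Within the HFD + Inhib group the libraries did not rank alike for all genes. Replicate 1 had the highest Ehhadh, Acaa1a, Acaa1b, Abcd3 and Decr2, and replicate 3 the lowest Ehhadh, Acaa1a, Acaa1b, Decr2, Ech1 and Crot, whereas Abcd2 was lowest in replicate 1 and highest in replicate 4. Over the 16 libraries, the log2 CPM of Ehhadh had a Pearson correlation of 0.98 with Abcd3, 0.97 with Acaa1b, 0.96 with Decr2, 0.96 with Ech1, 0.93 with Hsd17b4, 0.78 with Crot, 0.62 with Acaa1a and 0.60 with Abcd2. Over the 12 libraries without the inhibitor the values were 0.40 for Abcd3, -0.31 for Acaa1b, -0.09 for Decr2, -0.01 for Ech1, -0.26 for Hsd17b4, -0.55 for Crot, -0.71 for Acaa1a and 0.45 for Abcd2. The high values over 16 libraries mostly describe the distance of the 4 HFD + Inhib libraries from the rest. All points share the group means, the depth and the GC trend of their libraries.

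The genes outside the 9 whose pattern was most like their mean, over the log2 CPM of the 16 libraries, were Hadhb (Pearson r = 0.99), Suclg1 (0.99), Eci1 (0.99), Cpt1b (0.99), Acot2 (0.99), Kcnq3 (0.98), Slc27a1 (0.98), Gm36848 (0.98), Cyp4a31 (0.98) and Apmap (0.98). Hadhb and Eci1 encode enzymes of mitochondrial beta-oxidation, Cpt1b a carnitine palmitoyltransferase, and Slc27a1 a fatty acid transport protein. Without the inhibitor libraries, r over 12 libraries was 0.84 for Hadhb, 0.53 for Apmap and 0.15 for Gm36848, which had a mean of 0.691 CPM in HFD + Inhib.

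Of 22 other genes listed for peroxisomal beta-oxidation, 21 were tested, and Eci3, the gene left out, had at most 5.13 counts in a library. The list, like those below, was chosen with earlier results of these data known. With the inhibitor, 14 were higher than in HFD, where 9.80% of all genes were called higher. None was lower by edgeR, at an unadjusted p under 0.05 or by DESeq2, and 8.42% of all genes were called lower. The median log2 fold change of the 21 was 0.60, compared with 1.15 for the 9 genes. Those that were higher include Slc27a2, which activates very-long-chain fatty acids (1.40, SE 0.13, adjusted p = 1.7e-06), Crat, the carnitine acetyltransferase (1.89, SE 0.17, adjusted p = 1.7e-06), and Acot3, an acyl-CoA thioesterase (2.94, SE 0.45, adjusted p = 0.00024). Slc27a2 was picked after its value was seen. Acot5, another thioesterase, had 16.5 to 56.9 counts in the HFD + Inhib libraries and at most 1.05 in the HFD libraries, so no fold is given. Several Acot genes are close in sequence, which was not measured here, and the Acot counts are given as uncertain. Scp2, which carries the thiolase for branched chains, had a mean of 2672 CPM in HFD and 3119 CPM in HFD + Inhib and was not called.

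In HFD versus LFD, 3 of these 21 genes were higher and 3 were lower, which is near the background of 9.58% of all genes called higher and 8.80% called lower, so the counts are no result about the list. Acot3 (3.40, SE 0.49, adjusted p = 0.00041), Acot4 (1.32) and Acot6 (0.97) rose. Nudt7, a peroxisomal CoA hydrolase (193 CPM in HFD and 387 CPM in LFD, adjusted p = 0.0084), Hacl1, which cleaves hydroxyacyl-CoA (-0.70), and the oxidase Acox3 (-0.33) fell. The call of Acot6 was lost in 7 of 16 other fits, among them those without LFD replicate 1 or 3 and those without HFD replicate 2, 3 or 4 (0.81 to 1.02, adjusted p = 0.053 to 0.096). Acox3 lost its call in 10 of 16, among them those without LFD replicate 1 or 3 and those without any 1 of the HFD replicates (-0.36 to -0.26, adjusted p = 0.057 to 0.17). With the siRNA, 2 were higher than in HFD, Acox2 and Nudt19 (0.44 each), and 1 was lower, Acot3 (-1.44, SE 0.44, adjusted p = 0.043), whose groups overlapped. Of all genes, 5.20% were called higher and 6.55% lower, so these counts too are near the background. DESeq2 called 4 higher and 1 lower, and 6 were higher and 2 lower at an unadjusted p under 0.05. Acot3 lost this call in 9 of 16 other fits, among them those without HFD replicate 3 or 4 and those without HFD + siRNA replicate 1, 2 or 4 (-1.56 to -1.13, adjusted p = 0.066 to 0.13), and with the replicate block (-1.34, adjusted p = 0.069). Nudt19 lost its call in 5 of 16, without HFD replicate 4, without HFD + siRNA replicate 1 or 3 (0.37 to 0.40, adjusted p = 0.054 to 0.065), and after the GC and length correction, alone (0.29, adjusted p = 0.10) or with the block. Set against HFD + siRNA, HFD + Inhib had 12 higher and 2 lower, the latter being Pecr (-0.49) and Nudt19 (-0.34). There 17.3% of all genes were called higher and 16.6% lower, so the 2 falls are no more than the background. The groups overlapped for Nudt19, and its call was lost in 7 of 16 other fits, among them those without HFD + siRNA replicate 1 or 3 and without HFD + Inhib replicate 2 or 3 (-0.32 to -0.26, adjusted p = 0.055 to 0.10) and the GC and length correction (-0.17, adjusted p = 0.25).

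Peroxisomal enzymes outside beta-oxidation were also listed, of which 19 of 20 were tested, and Dao was at 0 in every library. Of these, 9 were higher in HFD + Inhib versus HFD and 1 was lower, with a median of 0.27, where 9.80% of all genes were higher and 8.42% lower. The single lower gene is thus no more than the background. The largest rises were in Ephx2, the soluble epoxide hydrolase (0.91, SE 0.13, adjusted p = 0.00013), Pxmp4 (0.81) and Mlycd, the malonyl-CoA decarboxylase (0.70). Pipox, a pipecolic acid oxidase, was lower (-0.47, SE 0.08, adjusted p = 0.00068). Of the 17 mitochondrial counterparts, 14 were higher and none was lower (also none at an unadjusted p under 0.05 or by DESeq2), with a median of 0.94. Eci1 (1.40), Hadhb (1.33) and Acadm, the medium-chain acyl-CoA dehydrogenase (1.26), rose the most, and Cpt1a, Acads and Echs1 were the 3 not called.

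Among 18 genes listed as PPARα targets, 17 were higher in HFD + Inhib versus HFD, where 9.80% of all genes were called higher. None was lower (also none at an unadjusted p under 0.05 or by DESeq2), where 8.42% of all genes were called lower. The median log2 fold change of the 18 was 3.77. The list was chosen with earlier results of these data known, so its counts and median are a description and no independent support. Fgf21 was the gene not called, at 7.63 CPM in HFD and 3.97 CPM with the inhibitor (adjusted p = 0.17). Cyp4a31 (5.42, SE 0.23, adjusted p = 3.4e-10) and Cyp4a10 (5.26, SE 0.34, adjusted p = 3.4e-08), which hydroxylate the far end of fatty acids to give dicarboxylic acids, had large rises. The Cyp4a genes are close in sequence, which was not measured here, and their counts are given as uncertain. Ucp3 was at 2.14 to 5.79 CPM in HFD + Inhib and at most 0.0771 CPM in HFD. For the siRNA group, none was called higher than in HFD by edgeR (1 at an unadjusted p under 0.05 and 1 by DESeq2). By edgeR 1 was lower, Cyp4a31 (4 at an unadjusted p under 0.05 and 2 by DESeq2). In that comparison 5.20% of all genes were called higher and 6.55% lower, so the edgeR counts are no result about the list. The median was 0.01, or -0.08 with Ucp3 at the bound that 3 counts give.

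**Figure D4:**
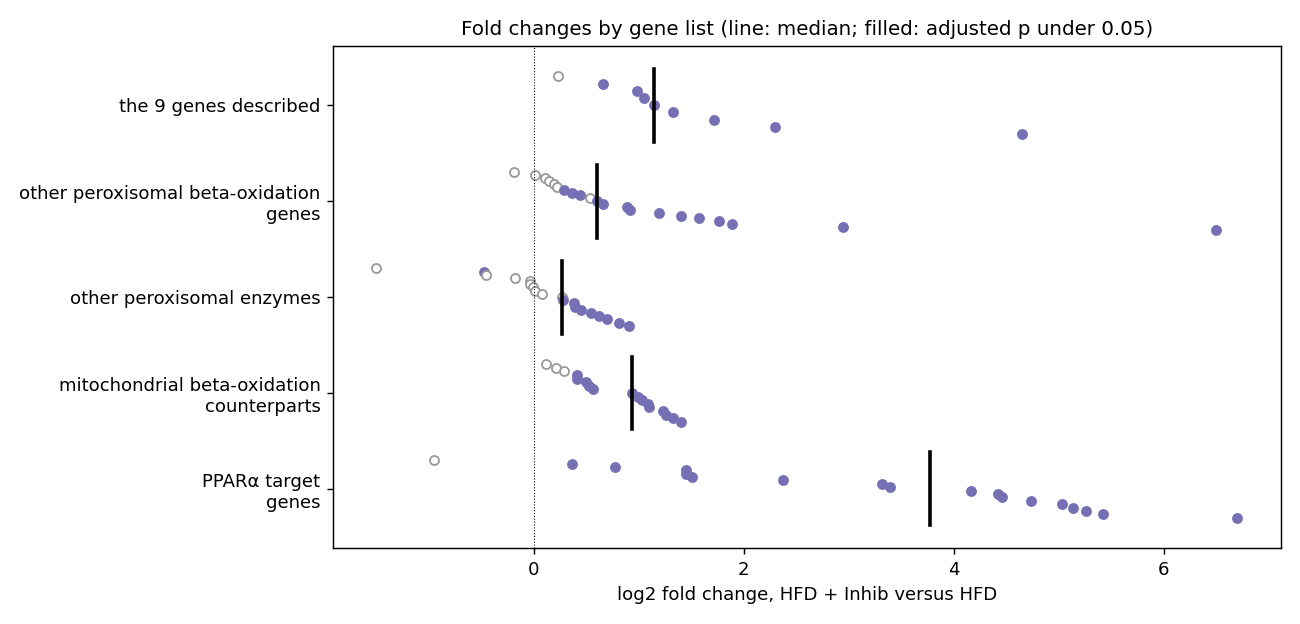
log2 fold change in HFD + Inhib versus HFD of each tested gene of 5 lists (points, filled for an adjusted p under 0.05), with the median of each list (lines). The medians are 1.15 for the 9 genes, 0.60 and 0.27 for the other peroxisomal lists, 0.94 for the mitochondrial genes and 3.77 for the PPARα targets, and the points furthest right, Acot5 and Ucp3, rest on counts close to 0 in HFD.

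The gene of the receptor itself, Ppara, was called in the diet comparison and not with the inhibitor, and the 2 effects were not tested against each other. It had 246, 311, 250 and 284 CPM in the LFD libraries, 430, 392, 484 and 605 CPM in the HFD libraries, 434, 422, 477 and 417 CPM in the HFD + siRNA libraries, and 631, 537, 529 and 647 CPM in the HFD + Inhib libraries. Ppara was higher in HFD versus LFD (0.81, SE 0.13, adjusted p = 0.00076) without overlap, and the HFD and HFD + Inhib libraries overlapped (0.29, SE 0.13, adjusted p = 0.12). That overlap rests on HFD replicate 4, with 605 CPM, and without it Ppara was called higher in HFD + Inhib (0.42, adjusted p = 0.021). Rxra, the gene of its partner, gave -0.21 (adjusted p = 0.23), and Ppargc1a, the gene of a coactivator, -0.27 (adjusted p = 0.54) in HFD + Inhib versus HFD.

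Markers of other cell types were low next to those of hepatocytes, and some moved with the groups. Among the adipocyte markers, Cfd and Adrb3 were the 2 of 6 tested, and both were higher in HFD + Inhib versus HFD. The summed level of the 6 was 7.94 CPM in LFD, 6.52 CPM in HFD, 13.6 CPM with the siRNA and 49.7 CPM with the inhibitor, and most of the last value came from Cfd, the most abundant, with 34.5 CPM. The defining adipocyte markers Adipoq, Plin1, Lep and Retn were each at most 0.539 CPM in every library, and in HFD + Inhib none was above 0.0971 CPM. Of the lymphocyte markers, which summed to 3.93 CPM in HFD and 1.70 CPM in HFD + Inhib with Cd79a as the most abundant, 3 of 6 were lower. Such levels are near the floor, with Cd3g at 2 to 7 counts in the HFD + Inhib libraries. Clec4f, the most abundant of 7 macrophage markers, was lower (-0.51, adjusted p = 0.0076), and the list summed to 179.9 CPM in HFD and 145 CPM in HFD + Inhib. None of 7 stellate cell markers was called in that comparison (265 and 246 CPM, Dcn the most abundant), nor any of the 4 cholangiocyte markers tested (29.7 and 26.1 CPM, Spp1). Of 6 endothelial markers (295 and 287 CPM, Stab2), 1 was higher, Lyve1. In HFD + Inhib versus HFD, 9.80% of all genes were called higher and 8.42% lower. The single calls among the macrophage and the endothelial markers are thus no result about those lists. The part of these cells in the differences of the peroxisomal genes was not tested.

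The libraries also differed in how levels followed GC content. Over the 8342 genes used for this, genes that are no independent replicates, Spearman's rho between log2 fold change and GC content was -0.53 for the diet, 0.51 for the siRNA against HFD, -0.27 for the inhibitor against HFD and -0.53 for the inhibitor against the siRNA. The GC content of the 9 genes ran from 41.6% for Abcd2 to 59.4% for Acaa1a, with Ehhadh at 47.0%. With the correction, Ehhadh was at 4.56 (adjusted p = 7.2e-11) with the inhibitor and -0.64 (adjusted p = 0.010) with the siRNA, both against HFD, and Acaa1b at 2.38 (adjusted p = 4.0e-09) with the inhibitor. The mice were injected with saline or insulin 10 minutes before the livers were taken, and which libraries came from which is not given in the sources used here.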

How the data were processed

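Liver RNA of 16 libraries, 4 in each of 4 groups, was measured. The authors deposited expected counts per gene symbol, unscaled, and the submitters' processing notes name STAR, RSEM and the build mm39. The paper's methods name HTG EdgeSeq, a probe assay, and which of them produced the table is not settled by these sources. Between 14.2% and 16.4% of the deposited values of a library are not whole.

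The expected counts were rounded and tested with edgeR 4.0.16 in R 4.3.3, in 1 fit of 4 groups: filterByExpr (minimum count 10, minimum total 15), TMM scaling (factors 0.929 to 1.09), quasi-likelihood test and Benjamini-Hochberg adjustment over the 18335 genes kept of 33142 with any count, with a threshold of 0.05. The common dispersion was 0.0380. Levels are CPM, and log2 CPM used a prior count of 2. Ratios within libraries were compared by exact permutation tests. Fold changes are given as the first group named over the second.

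Groups came from the labels. The members and gene lists were chosen with earlier results of these data known. Named are the 9 genes, Khk, Ppara, Rxra, Ppargc1a, up to 3 rises and 3 falls per pathway list among the genes called, the most abundant gene of each marker list, and the 10 genes most like the members in pattern. Other genes are named where a small count needed it, after their values were seen, and some genes of the pathway are not reported here. In the marker list of hepatocytes, 1 of 6 symbols (Tf) was not found. Transcript length, GC content and shared words of 50 bases came from GENCODE M21, which covered 15858 (86.5%) of the tested genes. Promoters came from RefSeq on GRCm38.p6, so no gene positions on mm39 are given, and motifs were searched on both strands of the 250 bases before the start.

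Alternatives were DESeq2 1.42.0, its size factors (RLE) in edgeR, no filter, at least 10 counts in every library, the compared groups only, a replicate block, each replicate left out, an adjusted p under 0.01, a size limit of 1 on the log2 fold change, and a correction for GC content and length by a trend with 5 degrees of freedom per library. Tested on simulated data for HFD + Inhib versus HFD with 18047 genes, edgeR recovered 89 of 100 genes changed by 1 on the log2 scale and 100 of 100 changed by 2, with 6 false calls. No library repeated another of its own group: the chi-square statistic per gene between libraries of a group was 20.5 to 152 over 24 pairs.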

Additional observations from a re-analysis of the deposited data

Results flagged for a closer look

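Of 48 sets of 4 libraries examined for a library far from its group, 2 held one, and chance alone would mark about 1 in 20. In the LFD group the share of Acaa1b in the thiolase counts was 85.5% in replicate 4, and 88.5% to 88.9% in the other 3 libraries. In the same group the log2 ratio of Ehhadh to Hsd17b4 was -0.253 in replicate 1, and -0.533 to -0.497 in the other 3. What set these libraries apart was not tested.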

How the results depend on the processing

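The rises of Ehhadh, Hsd17b4, Acaa1b, Abcd3, Decr2, Ech1, Acaa1a and Crot in HFD + Inhib versus HFD kept their call in the 16 other fits, with Ehhadh between 4.49 and 4.74, as did the fall of Ehhadh with the siRNA, between -0.73 and -0.59. Where a log2 fold change of 1 in size was also required, Acaa1a (0.98), Crot (0.66) and the fall of Ehhadh with the siRNA (-0.65) lost their calls. In HFD versus LFD, 2 of the 9 genes were called, against 1 without a filter, with the compared groups only, at an adjusted p under 0.01 or with a log2 fold change required to reach 1 in size, and 4 with the GC and length correction and the block (Hsd17b4 and Ech1 besides Abcd2 and Decr2). Leaving out a replicate gave 1 to 2 calls there, 1 to 2 between HFD + siRNA and HFD, and 0 to 1 between HFD + siRNA and LFD. In HFD + siRNA versus HFD, 2 became 1 at an adjusted p under 0.01 or with a log2 fold change of at least 1. In HFD + siRNA versus LFD, 0 became 3 by DESeq2, 1 with RLE size factors, 1 with the compared groups only, and 2 with the GC and length correction, alone or with the block. The causes were not tested.

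Same-numbered libraries had correlations of -0.132 to 0.336 between their deviations from the group means over 24 pairs. The mean was 0.041, against -0.0137 for pairs with other numbers, and 4 of 16 libraries correlated best with their own number. These values show no clear pairing by number, but they cannot exclude one. With the replicate block, 1 of the 9 genes was called in HFD versus LFD (Abcd2), 2 for the siRNA and 8 for the inhibitor against HFD, and 2 for the siRNA against LFD. In the paired exact test HFD + Inhib against HFD had p = 0.125 for both within-library ratios, the smallest that 4 pairs can give.

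Directions turned only in values that were not called. With the GC and length correction, alone and with the block, HFD versus LFD became 0.041 and 0.017 for Acaa1a, 0.162 and 0.163 for Acaa1b, -0.0398 and -0.0389 for Abcd3, -0.0705 and -0.0670 for Crot, 0.214 and 0.226 for Khk, 0.095 and 0.094 for Rxra, and -0.008 and -0.030 for Ppargc1a. Acaa1b in HFD + siRNA versus HFD became 0.005 with the correction alone, which keeps its direction, and -0.0032 with the correction and the block. Khk in HFD versus LFD was 0.0053 with at least 10 counts in every library and 0.0038 with the block. Leaving out a replicate gave -0.122 to 0.153 for Khk and -0.144 to 0.043 for Acaa1b in HFD versus LFD, -0.023 to 0.130 for Hsd17b4 in HFD + siRNA versus HFD, and -0.220 to 0.0038 for Abcd3 in HFD + siRNA versus LFD. Depth limits the genes of the other lists with under 10 counts in a library, not the 9.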
